A study of Mus musculus with 12 samples.

Results

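AA467197 and Ndufa4 are 2 related mouse genes whose proteins are small partners of cytochrome c oxidase, and both were followed here in T-cell acute lymphoblastic leukemia exposed to dexamethasone in the animal. The pair is 2 of the 38339 genes in the deposited table (AA467197 is ENSMUSG00000033213 and Ndufa4 is ENSMUSG00000029632). AA467197 was selected on its DEX minus VEH difference in these same libraries, and Ndufa4 as its paralog. The difference between treatments is therefore given for both as a description, with no test.

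The 12 libraries came from bone marrow of mice that had received 1 of 6 primary murine T-ALLs, and the labels give C57BL/6 x 129Sv/Jae F1 as the background. The recipients were moribund when they received vehicle (VEH) or dexamethasone (DEX), and marrow was taken 4 hours later. Each leukemia gave 1 VEH and 1 DEX library, from 1 recipient each, so n = 6 leukemias per group and all groups share transplantation and advanced disease. Total RNA was sequenced after red cell lysis, with no sort of leukemic cells stated, so the RNA of remaining host marrow cells is in the libraries. In bulk samples fewer cells of a type and less RNA per cell cannot be told apart.

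Cytochrome c oxidase, or complex IV, is the last enzyme of the mitochondrial respiratory chain and passes electrons from cytochrome c to oxygen. Ndufa4 was named as a subunit of complex I and was later found to belong to complex IV. AA467197 is the mouse counterpart of human C15orf48, also called NMES1 or MOCCI. Its protein can take the place of Ndufa4 in complex IV in cells under inflammatory stimulation, and the microRNA miR-147 lies in its transcript and is known to target Ndufa4. Dexamethasone is a synthetic glucocorticoid that acts through the glucocorticoid receptor and is a standard drug in lymphoid leukemia.

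The coding sequences are shown because they show how far apart the paralogs are in sequence. Capitals mark bases that are identical in a global alignment of the 2 sequences, both from GENCODE M21 on GRCm38.
AA467197: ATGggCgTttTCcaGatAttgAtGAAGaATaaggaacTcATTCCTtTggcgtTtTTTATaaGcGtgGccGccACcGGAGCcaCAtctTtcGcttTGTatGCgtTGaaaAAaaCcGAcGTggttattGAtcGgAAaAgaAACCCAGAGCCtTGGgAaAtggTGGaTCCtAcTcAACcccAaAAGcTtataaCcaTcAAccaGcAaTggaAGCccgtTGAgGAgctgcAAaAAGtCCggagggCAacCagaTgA
Ndufa4: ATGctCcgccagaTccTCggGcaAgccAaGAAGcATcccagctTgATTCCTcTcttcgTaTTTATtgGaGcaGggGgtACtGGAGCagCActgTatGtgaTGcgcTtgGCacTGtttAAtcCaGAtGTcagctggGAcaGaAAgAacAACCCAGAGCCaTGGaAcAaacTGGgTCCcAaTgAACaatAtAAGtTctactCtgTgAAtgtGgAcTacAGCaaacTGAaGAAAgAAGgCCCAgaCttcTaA

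The coding sequence of AA467197 held 252 bases and 83 codons before the stop, and that of Ndufa4 held 82 codons before the stop. Of 240 aligned bases 124 were identical, which is 51.7%. Ndufa4l2, the third member of the family, shared 66.9% of aligned coding bases with Ndufa4 and 53.8% with AA467197. AA467197 lies on chromosome 2 from 122636986 to 122641191 on the plus strand, and its coding part runs from 122638098 to 122640769 in a transcript of 5 exons. Ndufa4 lies on chromosome 6 from 11900292 to 11907497 on the minus strand, and its coding part runs from 11900535 to 11907365 in a transcript of 4 exons. No 31-base word was common to both transcripts. Of the 762 words in the AA467197 transcript 49 also occur in another gene model, and all 49 are those of Mir147, which overlaps it. In the Ndufa4 transcript 20 of 580 words, or 3.45%, also occur in Gm14630, Gm45446 or Gm14450, so a small share of its fragments could be assigned to those gene models.

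The hairpin of Mir147 lies at positions 122640803 to 122640881 of chromosome 2, within exon 5 of AA467197 and after the coding end. The mature 5p arm is shown because AA467197 is its host transcript, with the seed (bases 2 to 8) in capitals, from RefSeq on GRCm38.p6.
mmu-miR-147-5p: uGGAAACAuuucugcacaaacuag

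That seed occurred in 1 of the 1738 mature mouse microRNAs of the RefSeq table, which is miR-147-5p itself. The arm usually cited as targeting Ndufa4 is the 3p arm, so the seed printed here is not the one of that targeting. The 3p arm is named only. Mir147 was listed at 0 FPKM in all 12 libraries, but its reads overlap an exon of AA467197 and a total RNA library does not capture mature microRNA well, so the level of miR-147 was not measured here.

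Between 11778 and 12970 genes reached 1 FPKM per library, and the FPKM of a library summed to between 1466471 and 2019058. The table holds no counts, and the depth estimated from sparse genes was 11700000 to 36200000 fragments in 11 libraries. That of leukemia 2 with VEH could not be resolved. Over all 12358 tested genes limma called 528 higher and 1147 lower with DEX. After median-of-ratios scaling the split was 679 and 720, and after rescaling to TPM it was 268 and 1844. The VEH library of leukemia 1 stood apart in granulocyte and monocyte markers, and that of leukemia 2 in erythroid and B-lineage markers.

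AA467197 was higher with DEX than with VEH in all 6 leukemias. Its level is given in FPKM, the number of fragments per kilobase of transcript, adjusted for how many fragments each library had mapped. In leukemias 1 to 6 the VEH libraries held 10.02, 28.6, 19.2, 37.0, 8.91 and 11.8 FPKM of AA467197. The DEX libraries of the same leukemias held 104, 195, 111, 299.8, 59.7 and 61.4 FPKM. The lowest DEX library, that of leukemia 5, was above the highest VEH library, that of leukemia 4, so the groups did not overlap.

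The median of AA467197 was 15.5 FPKM with VEH and 107 FPKM with DEX. Measured within each leukemia, the DEX level was between 5.19 times (leukemia 6) and 10.4 times (leukemia 1) the VEH level. The difference on the log2(FPKM + 1) scale had a mean of 2.72 and an SD of 0.35 over the 6 leukemias, and single leukemias ranged from 2.28 to 3.26. The mean was 2.61 without leukemia 1 and 2.72 without leukemia 2, the leukemias whose VEH libraries stood apart. By the depth estimate these values rest on about 75 to 456 fragments per VEH library and 770 to 5640 per DEX library, and the counting error of the smallest is 11.5%. By this difference AA467197 stood at place 12 of the 12358 genes tested, between Fam69b at 2.85 and Gm10800 at 2.66. Across all tested genes 5.97% were higher in 6 of 6 leukemias and 0.388% had every DEX library above every VEH library. The rule used this contrast, so these shares are the background and nothing is read from them.

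In level AA467197 lay near the middle of the tested genes with VEH and in their upper range with DEX. The median percentile of its FPKM among tested genes was 55.0 with VEH and 93.8 with DEX. The VEH libraries ranged from the 39.7 to the 79.7 percentile and the DEX libraries from the 88.6 to the 97.5 percentile.

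Ndufa4 showed no such difference. Its VEH libraries held 234, 179.8, 222, 134, 189 and 196 FPKM in leukemias 1 to 6. Its DEX libraries held 215, 201.7, 235, 153, 188 and 209.6 FPKM. The groups overlapped almost fully, and the DEX library was higher in 4 leukemias and lower in leukemias 1 and 5.

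The mean level of Ndufa4 was 192 ± 35.3 FPKM with VEH and 200.4 ± 28.0 FPKM with DEX (SD, n = 6). Its log2 difference had a mean of 0.07 and an SD of 0.12, and it ranged from -0.13 in leukemia 1 to 0.19 in leukemia 4. The sign of this small mean turned to -0.080 after quantile normalization and to -0.071 after rescaling to TPM, so no direction is given for Ndufa4. The median of all tested genes was -0.053 in the main fit, -0.045 after quantile normalization and -0.16 after rescaling to TPM. Its median percentile among tested genes was 96.6 with VEH and 96.6 with DEX.

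**Figure D1:**
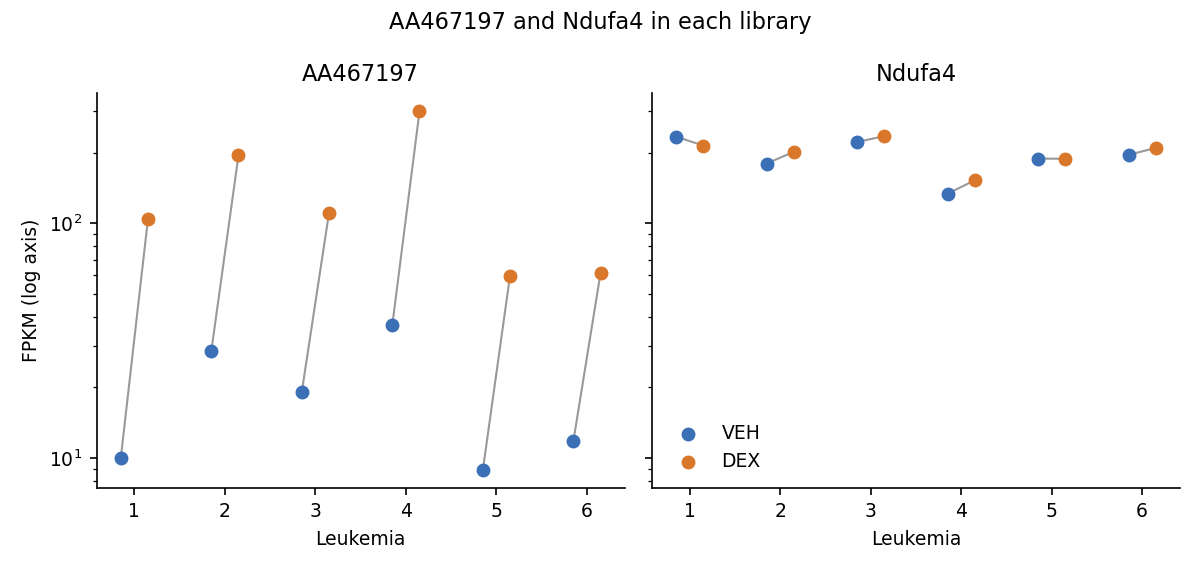
FPKM of AA467197 (left) and Ndufa4 (right) on a log axis in leukemias 1 to 6, with 1 VEH and 1 DEX library per leukemia joined by a line. All 6 DEX points of AA467197 lie above all of its VEH points, while the lines of Ndufa4 are nearly flat.

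The balance of the paralogs therefore differed between the treatments in every leukemia. FPKM is a level per length, so the genes can be compared with each other. With VEH the ratio of AA467197 to Ndufa4 was 0.0428, 0.159, 0.0863, 0.277, 0.0472 and 0.0604 in leukemias 1 to 6. With DEX it was 0.486, 0.965, 0.470, 1.97, 0.317 and 0.293. The lowest DEX ratio, in leukemia 6, was just above the highest VEH ratio, in leukemia 4.

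AA467197 exceeded Ndufa4 in 1 library, that of leukemia 4 with DEX. In leukemia 2 with DEX the levels were nearly equal. AA467197 made up 9.61 ± 6.88% of the summed level of both genes with VEH and 37.8 ± 16.8% with DEX (SD, n = 6). The log2 change of the ratio had a mean of 2.73 and an SD of 0.43 over the 6 leukemias, with a range of 2.28 to 3.50. The summed level of both genes was 212 ± 27.7 FPKM with VEH and 339 ± 76.8 FPKM with DEX (SD, n = 6).

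**Figure D2:**
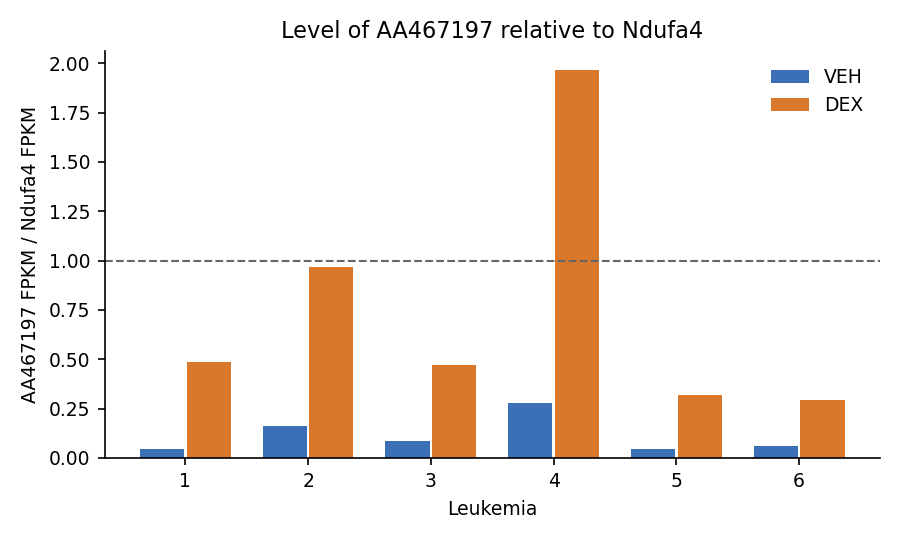
Ratio of AA467197 FPKM to Ndufa4 FPKM in each library of leukemias 1 to 6, bars starting at 0, with a dashed line at equal levels. The ratio was between 0.0428 and 0.277 with VEH, and the DEX library of leukemia 4 was the one above the line, at 1.97.

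The leukemias also differed from each other in the level of AA467197, and this comparison does not use the contrast by which the gene was chosen. In limma's F test on the leukemia terms the adjusted p of AA467197 was 0.000281. Of all tested genes 51.1% passed the same test, so a difference between leukemias was common in these data. The test shares its residual spread with the treatment contrast.

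Ordered by the mean of both libraries on the log2(FPKM + 1) scale, AA467197 was highest in leukemia 4, followed by leukemias 2, 3, 1, 6 and 5. The gaps between neighbours in that order were 0.49, 0.68, 0.48, 0.27 and 0.20. The standard error of a difference between leukemia means was 0.25. The gap between leukemias 6 and 5 lay within it and that between leukemias 1 and 6 barely outside it. A gap beyond 1 standard error is not a test, and single pairs of leukemias were not tested, so the order is a description. The 3 leukemias with the highest VEH levels (4, 2 and 3) also had the 3 highest DEX levels, in the same order. The size of the log2 difference followed another order, with leukemia 1 first and leukemia 6 last.

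Ndufa4 differed between leukemias as well, with an adjusted p of 0.00645 in limma's F test. This call rested on leukemia 4, where Ndufa4 was lowest under both treatments, and the adjusted p was 0.17 without it. The order was leukemias 3, 1, 6, 2, 5 and 4, with gaps of 0.03, 0.14, 0.09, 0.01 and 0.40 and a standard error of 0.08. The gaps between leukemias 3 and 1, and between leukemias 2 and 5, lay within that error. Single pairs were not tested for Ndufa4 either. Leukemia 4 thus had the highest AA467197 and the lowest Ndufa4 of the 6. Over all 12 libraries the correlation between both genes was -0.18 (Pearson's r, libraries of 1 leukemia not independent), given as a description.

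The other relatives read here, Ndufa4l2 and Gm14630, were silent or nearly so. Ndufa4l2, a hypoxia-responsive paralog, lay between 0 and 0.30 FPKM and was above 0 in 11 of 12 libraries. Gm14630, a gene model that shares words with Ndufa4, was listed at 0 in all 12 libraries. The levels of Gm45446 and Gm14450, which also share words with Ndufa4, are not given here.

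No structural subunit of complex IV was called between the treatments. Of 18 nuclear-encoded structural subunits and tissue isoforms 14 were tested with limma, and 0 were called higher and 0 lower at an adjusted p of 0.05. At an unadjusted p under 0.05, 1 was higher and 1 lower. Over all genes 4.27% were called higher and 9.28% lower. The median difference of the 14 was 0.07, beside -0.05 for all tested genes. It was -0.06 after either quantile normalization or rescaling to TPM, where all tested genes had medians of -0.045 and -0.16.

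Single subunits ranged from -0.16 for Cox5a, which was lower in all 6 leukemias (adjusted p 0.143), to 0.48 for Cox6a2, the muscle isoform, whose highest library held 7.11 FPKM. Cox4i1, the common isoform of the regulatory subunit 4, had a median of 269 FPKM with VEH and 297 FPKM with DEX. Of the untested isoforms, Cox4i2 had a median of 0.635 FPKM with VEH and 0.43 FPKM with DEX, Cox8b reached at most 0.17 FPKM, and Cox7b2 and Cox8c were listed at 0 in every library. Cox5a, Cox6a2 and Cox4i1 were singled out with their values known.

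Set beside these subunits per length, AA467197 changed its place in every leukemia but leukemia 6. With VEH it was above 3 of the 14 tested subunits in every library. These were Cox6a2, Cox6b2 and Cox7a1, which held at most 8.27 FPKM with VEH. With DEX AA467197 was above 6, 8, 4, 11, 4 and 3 of the 14 in leukemias 1 to 6. Ndufa4 was above 7 to 10 of the 14 with VEH and above 8 to 10 with DEX.

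**Figure D3:**
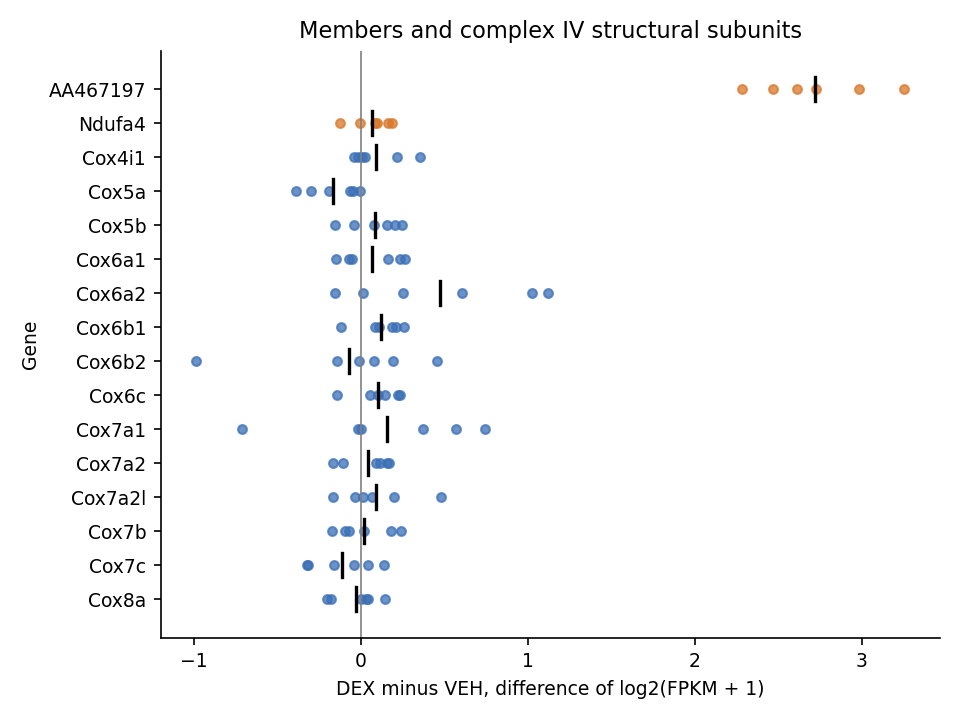
DEX minus VEH difference of log2(FPKM + 1) for AA467197, Ndufa4 and the 14 tested structural subunits of complex IV, with 1 point per leukemia and a black bar at the mean. The points of AA467197 lie between 2.28 and 3.26, and the mean of each structural subunit lies between -0.16 and 0.48.

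The mitochondrially encoded core of complex IV, mt-Co1, mt-Co2 and mt-Co3, gave 0 calls with limma in either direction and 0 at an unadjusted p under 0.05. The shares called over all tested genes were 4.27% higher and 9.28% lower. The median difference of these 3 genes was 0.02. It was -0.26 after quantile normalization, beside -0.045 for all tested genes.

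Among 24 tested assembly factors of complex IV limma called 1 higher and 3 lower, and the median difference was -0.02. These counts are near the shares over all tested genes, 4.27% higher and 9.28% lower, so they are no result about the assembly factors as a group. Cmc2, a twin-CX9C protein of the intermembrane space, rose by 0.83 ± 0.12 (moderated SE, limma adjusted p 0.00405) and was higher in 6 of 6 leukemias. Its lowest, median and highest levels were 11.2, 17.8 and 27.7 FPKM with VEH and 23.1, 34.9 and 42.8 FPKM with DEX, so the groups overlapped slightly. Cox17, the copper chaperone that supplies complex IV, had levels of 59.7, 66.0 and 77.0 FPKM with VEH and 44.4, 54.5 and 55.6 FPKM with DEX, lowest, median and highest. Every DEX library of Cox17 was below every VEH library, which held for 1.34% of tested genes, and it fell by 0.38 ± 0.07 (limma adjusted p 0.0121).

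The other 2 calls were less firm. Sco2, a second copper delivery factor, fell by 0.47 (limma adjusted p 0.0405), and the adjusted p was 0.103, 0.0919, 0.0926, 0.0905 and 0.0864 without leukemia 1, 3, 4, 5 or 6. Lrpprc, which stabilises mitochondrial messenger RNA, fell by 0.26 (limma adjusted p 0.0438), and the adjusted p was between 0.0504 and 0.137 when any 1 leukemia was left out.

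Complex I, after which Ndufa4 was named, gave 0 calls with limma among 36 tested subunits. Of all tested genes 4.27% were called higher and 9.28% lower. Among the 36 subunits, 4 were higher and 1 lower at an unadjusted p under 0.05. The median difference was 0.05, beside -0.05 for all tested genes. After rescaling to TPM it was -0.09, beside -0.16 for all tested genes. Without leukemia 3, limma called 1 subunit higher, Ndufb7.

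The inflammatory genes of activated macrophages, the setting in which AA467197 is best known, were mostly too low to be tested. Of the 20 genes on the list 5 were tested, and limma called 2 higher and 1 lower. Of all tested genes 4.27% were called higher and 9.28% lower. Nfkbia, an inhibitor of NF-kappaB that is also a known glucocorticoid target, rose by 0.67 ± 0.11 (limma adjusted p 0.0074). Tnfaip3, a ubiquitin-editing inhibitor of the same pathway, rose by 1.0 ± 0.24 (limma adjusted p 0.0273), and the adjusted p was 0.0677, 0.0596 and 0.052 without leukemia 1, 2 or 5. Its highest DEX library, that of leukemia 6, held 146 FPKM beside a DEX median of 33.1 FPKM. Without leukemia 6 the difference of Tnfaip3 was 0.70 (limma adjusted p 0.00327).

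Tnf, the cytokine, fell by 0.74 ± 0.10 (limma adjusted p 0.00356) and was lower in all 6 leukemias. Il1b, a main product of activated macrophages, stayed at or below 2.59 FPKM in every library, and Il6 at or below 0.17 FPKM. These 2 untested cytokines were singled out with their values known. The median difference of the 5 tested genes was -0.15.

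Among the established glucocorticoid targets 6 of 11 tested genes were called higher by limma and 0 lower (7 and 0 at an unadjusted p under 0.05), with a median difference of 0.87. The shares over all tested genes were 4.27% higher and 9.28% lower. Fkbp5, a chaperone partner of the receptor, differed by 1.06, Tsc22d3, which encodes GILZ, by 1.38, and Ddit4, an inhibitor of mTOR signalling, by 1.69. The 11 tested genes ranged from -0.28 for Cdkn1a, named here with its value known, to 1.69 for Ddit4.

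Among the neighbours of AA467197 on chromosome 2, 3 genes were called higher. Within 250 kb of its annotated start 12 other genes of the table lie, 8 were tested, and limma called 3 higher and 0 lower, beside 4.27% and 9.28% of all tested genes. Without the block for leukemia none of the 3 passed, with an adjusted p of 0.79 for Slc30a4, 0.698 for Bambi-ps1 and 0.225 for Bloc1s6. That fit ignores the pairing and takes the differences between leukemias into its spread. Over all tested genes it called 35 higher, beside 528 with the block. Slc30a4, a zinc transporter whose start lies 65.7 kb away, had levels of 0.98, 9.95 and 18.5 FPKM with VEH and 1.83, 16.3 and 30.8 FPKM with DEX (lowest, median and highest). It was higher in 6 of 6 leukemias and rose by 0.75 ± 0.11 (limma adjusted p 0.00438). Bambi-ps1, a processed pseudogene 169.5 kb on the other side, rose by 0.68 ± 0.12 (limma adjusted p 0.00807), also in 6 of 6 leukemias. As a processed copy, Bambi-ps1 could share reads with its parent gene, and its value is uncertain for that reason.

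Bloc1s6, a subunit of the BLOC-1 complex that forms lysosome-related organelles, rose by 0.31 ± 0.09 (limma adjusted p 0.0475). That call was lost without leukemia 1, 2, 3, 4 or 6, with an adjusted p of 0.116, 0.107, 0.0759, 0.0939 and 0.0911. Sqor, the mitochondrial enzyme that oxidises sulfide, differed by 0.38 and did not pass (limma adjusted p 0.0579). Its adjusted p was 0.0256 without leukemia 6.

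The other tested neighbours of AA467197 did not pass either. Spata5l1, 6.36 kb away, differed by 0.00 (limma adjusted p 0.993), and Gatm, an enzyme of creatine synthesis 25.7 kb away, by -0.27 (limma adjusted p 0.406). Slc28a2, a nucleoside transporter 210.5 kb away, differed by 0.15 (limma adjusted p 0.134), and Gm14085, 152.0 kb away, by 0.11 (limma adjusted p 0.543). Phf14, which starts 0.312 kb from Ndufa4 in the opposite direction, was the 1 tested neighbour of Ndufa4, and it differed by 0.03 (limma adjusted p 0.813).

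**Figure D4:**
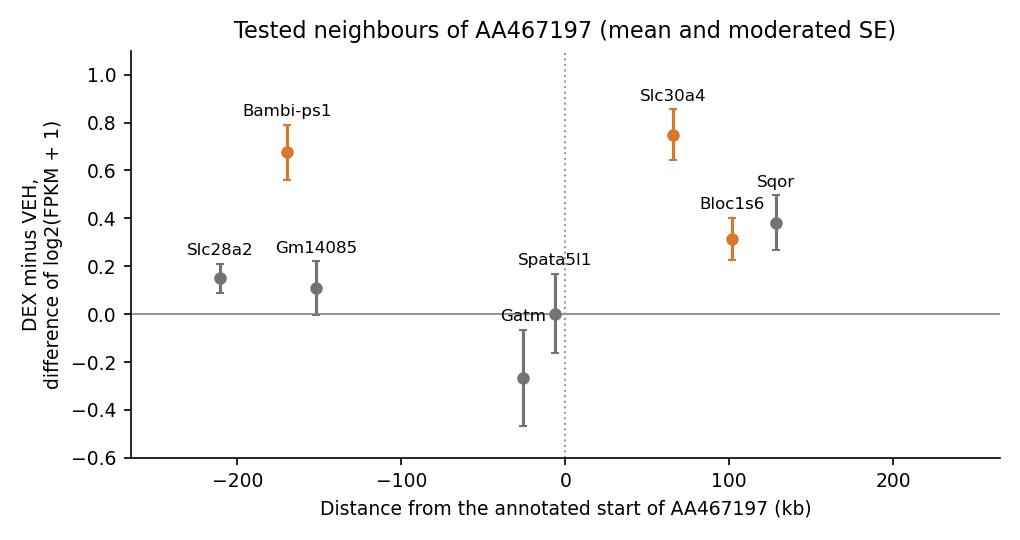
DEX minus VEH difference of log2(FPKM + 1), mean with moderated standard error, for the 8 tested genes within 250 kb of the annotated start of AA467197, plotted by distance in kb. Orange points are the 3 genes called by limma, and the largest of these differences, that of Slc30a4, is 0.75.

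The promoter of AA467197 was read for 5 motifs on both strands, in the RefSeq window of 300 bases. The searched letters were TGANTCA for AP-1, CACGTG for an E-box and AGAACA for a single hexamer of the glucocorticoid receptor element. The full palindrome of that element and the kappaB motif were searched as degenerate consensus motifs and are given by name. A hexamer can lie within a palindrome, so these matches can overlap. The window below is shown because it holds the only matches, an E-box 82 to 77 bases and an AP-1 motif 73 to 67 bases before the RefSeq start, in capitals. The GENCODE start of the gene, 122636986, from which neighbour distances were taken, lies upstream of this window. The bases around that GENCODE start were not searched. The window is chr2:122637797-122637826 of GRCm38.p6, plus strand.
AA467197 promoter: agggggcgCACGTGagtTGACTCAgtgcga

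Among 32851 mouse promoters of the same length 7.15% held the E-box and 7.81% the AP-1 motif. The receptor palindrome occurred in 0.475%, the single hexamer in 19% and the kappaB motif in 4.51%, and none of these 3 was found in the AA467197 window. The Ndufa4 promoter held none of the 5. The absence of these letters says nothing about regulation from elsewhere, and no binding was measured in these samples.

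Over the 12 libraries the genes whose log2(FPKM + 1) followed AA467197 most closely were Slc25a12 (r = 0.937), Rcsd1 (r = 0.934), Taf1c (r = 0.932), Sppl3 (r = 0.929) and Il17ra (r = 0.928). Slc25a12 is the mitochondrial aspartate and glutamate carrier, Taf1c is part of the RNA polymerase I initiation factor, and Il17ra is a receptor chain for interleukin 17. All 5 were called higher with DEX by limma, by 0.42 for Slc25a12 to 1.12 for Taf1c, beside 4.27% of all tested genes. They were picked for following AA467197, whose profile holds the difference between treatments. The calls therefore follow largely from the pick, and nothing is read from them. These correlations hold the difference between treatments and the differences between leukemias together, and paired libraries share a leukemia.

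By the 6 within-leukemia differences alone the nearest genes were Fam69b (Euclidean distance 1.05), Gm27252 (1.73), Gm15747 (1.92), Ston1 (1.95) and Trnp1 (2.08). For Ndufa4 the closest genes over the 12 libraries were Selenop (r = 0.947), Ldah (r = 0.945), Htatsf1 (r = 0.917), Dtd1 (r = 0.916) and 1700113A16Rik (r = 0.911). None of these 5 was called between treatments by limma, with adjusted p from 0.486 for Selenop to 0.991 for 1700113A16Rik. They were picked for following Ndufa4, which was nearly level between treatments, so this too follows largely from the pick.

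Markers of other marrow cells were present in all libraries, and few were called between the treatments. The T-lineage markers Cd3e and Lck had VEH medians of 88.8 and 445 FPKM, so the labelled lineage was present. Of 14 tested T-lineage markers limma called 1 higher (Cd8b1) and 4 lower (Cd3g, Lck, Cd5 and Dntt), with a median difference of -0.10. Over all tested genes limma called 4.27% higher and 9.28% lower. The call of Lck was lost without leukemia 1, 3, 4 or 5 (adjusted p 0.0752, 0.0588, 0.0828 and 0.0866), and that of Cd3g without leukemia 4 or 5 (adjusted p 0.0512 and 0.0515). The call of Cd8b1 was lost without leukemia 1, 2, 3, 4 or 5, with an adjusted p of 0.0571 to 0.137. The summed FPKM of 20 granulocyte and monocyte markers was 9644, 4862, 2415, 2485, 3784 and 3962 with VEH in leukemias 1 to 6. With DEX it was 5804, 1741, 3496, 2397, 2624 and 1571, lower in 5 leukemias and higher in leukemia 3. Of 18 such markers tested limma called 0 higher and 2 lower (0 and 7 at an unadjusted p under 0.05), with a median difference of -0.45. The 2 calls are near the share over all tested genes, so the count of calls is no result about these markers. Of the 18, 16 had a difference below 0 and 2 above it, beside a median of -0.05 for all tested genes. Under the other scalings 16 or 17 of the 18 were below 0. The cause of this was not tested. The called genes were Ltf and Itgam, and each call was lost without leukemia 1, 2, 4, 5 or 6, with an adjusted p of up to 0.089 for Ltf and 0.107 for Itgam.

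AA467197 was higher with DEX both where these markers were lower and in leukemia 3, where they were higher. The myeloid genes S100a8, S100a9 and Lyz2 had VEH medians of 1572, 1272 and 153 FPKM and DEX medians of 917, 791 and 103 FPKM. Csf1r, a macrophage receptor, had medians of 2.29 and 2.07 FPKM. Summed erythroid markers ranged from 9.35 to 1221 FPKM with VEH and from 14.9 to 153 FPKM with DEX, and B-lineage markers from 2.11 to 57.3 and from 2.02 to 10.6 FPKM. The medians of Hbb-bs, a beta globin, were 10.2 and 7.47 FPKM, and those of Cd79a, a B-cell receptor chain, 0.40 and 0.29 FPKM. Of 5 tested erythroid markers and 1 tested B-lineage marker limma called 0, also at an unadjusted p under 0.05. All 5 erythroid markers had a difference below 0, with a median of -0.54, and the B-lineage marker differed by -0.49. Among the B-lineage markers, Pax5 was listed at 0 in 2 and Igll1 in 3 of 12 libraries. The part of these cells in the level of AA467197 was not tested.

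**Figure D5:**
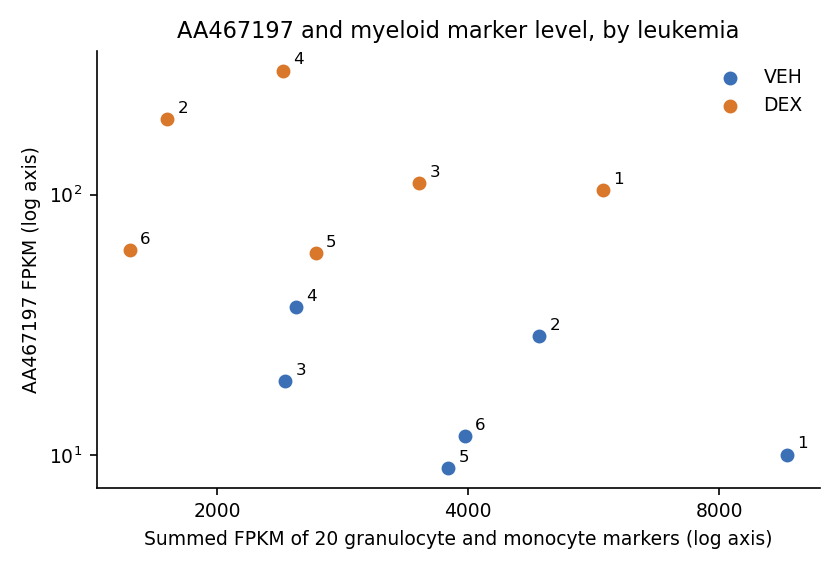
FPKM of AA467197 against the summed FPKM of 20 granulocyte and monocyte markers, both on log axes, with 1 point per library numbered by leukemia. Within each leukemia the DEX point lies above the VEH point, also in leukemia 3, where the marker sum was 2415 with VEH and 3496 with DEX.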

How the data were processed

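RNA of 12 bone marrow samples was sequenced as paired reads of 100 bp with a stranded total RNA kit, per the labels' protocols. The authors deposited FPKM with 2 decimals for 38339 genes. The submitters' processing notes name mm10, Bowtie2 (version 2), RSEM and edgeR without roles, and the annotation version is not given in the sources used here. How fragments shared between overlapping genes were assigned is likewise not given. Groups came from the treatment label, and pairs from the leukemia code in both titles of a pair. As a check, deviations from the group means correlated at 0.551 to 0.817 within a leukemia and at -0.34 to 0.205 between leukemias.

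Gene identities came from GENCODE M21 on GRCm38, matched by identifier for 37693 genes. With limma 3.58.1 (R 4.3.3), log2(FPKM + 1) of the 12358 genes with at least 1 FPKM in at least 6 libraries was fitted with leukemia as block plus treatment, with a trended prior. Benjamini-Hochberg adjustment ran over all of these genes, with a threshold of 0.05. A difference on this scale understates the change of low genes. The fit was tested on simulated data. The block removes differences in level between leukemias, so treatment p-values are judged against the spread of the within-leukemia differences. Each arm of a leukemia is 1 recipient, so that spread holds differences between recipients and differences in response between leukemias together. The leave-one-out fits asked for at least 1 FPKM in at least 5 libraries.

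Coding sequences were aligned globally, and transcripts were compared by 31-base words. Depth was estimated from the smallest values of genes of 400 to 700 bp with a mean below 0.5 FPKM, with fragments assumed to be 150 bp. An estimate was kept where 1 fragment on a gene of 550 bp was worth at least 0.04 FPKM, a rule set after seeing the data. Such counts cover counting error only.

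The members, lists and rules were chosen with earlier results of these data known. Named are both members, their relatives, up to 4 called genes per list, tested neighbours within 250 kb, the 5 genes most like each member by r or by distance, 3 glucocorticoid targets and 8 markers. Alternatives were other pseudocounts, filters and scalings, no block, no trend, and each leukemia left out.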

Additional observations from a re-analysis of the deposited data

Results flagged for a closer look

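With 6 libraries per group, a value is named here where its gap to the nearest other exceeded Dixon's 95% critical value of the group's range, which chance does in about 1 of 20 groups. The check ran on 219 groups of values, those of the members, of 62 other genes named above and of the summed lists, and it named 30. None of the values of AA467197, of Ndufa4 or of their ratio was among them.

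The DEX library of leukemia 6 was highest in Tnfaip3 (146 FPKM), Tsc22d3 (220.5 FPKM), Bambi-ps1 (39.0 FPKM) and Gm14085 (38.6 FPKM) and lowest in Nfkbia (30.4 FPKM). The summed inflammatory genes also peaked there, at 201 FPKM, and most of that sum was Tnfaip3. The log2 difference of Tnfaip3 was highest in leukemia 6, at 2.53. The VEH library of leukemia 6 was highest in Slc28a2 (31.1 FPKM) and Gm14085 (28.1 FPKM).

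The VEH library of leukemia 1 was highest in the summed granulocyte and monocyte markers (9644 FPKM) and in S100a8 (3521 FPKM), S100a9 (3232 FPKM) and Lyz2 (486 FPKM). Its DEX library was highest in Ltf (122 FPKM), Csf1r (5.90 FPKM) and Il1b (1.22 FPKM). The VEH library of leukemia 2 held the highest summed erythroid markers (1221 FPKM), Hbb-bs (371 FPKM), summed B-lineage markers (57.3 FPKM), Cd79a (9.68 FPKM), Gm27252 (5.02 FPKM) and Cox8b (0.05 FPKM).

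Leukemia 3 was highest in Cox4i2 with VEH (6.97 FPKM) and with DEX (4.02 FPKM) and in Ndufb7 with VEH (96.5 FPKM), and its log2 difference of Rcsd1 was the lowest, 0.26. Leukemia 4 was highest in Cox8b with DEX (0.17 FPKM, a log2 difference of 0.23) and lowest in Htatsf1 with VEH (21.3 FPKM). The log2 difference of Sppl3 was highest in leukemia 2, at 1.36.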

How the results depend on the processing

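The log2 difference of AA467197 stayed between 2.54 (TPM) and 2.81 (without leukemia 6) over 16 alternatives, and the change of its ratio to Ndufa4 between 2.58 and 2.83. The difference of Ndufa4 turned to -0.080 after quantile normalization and to -0.071 after rescaling to TPM. The median of all tested genes was -0.05, and -0.16 after rescaling to TPM, a shift of more than 0.1.

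Genes called higher numbered 181 without a filter, 268 with TPM and 35 without the replicate block, and 234 to 537 when a leukemia was left out. Genes called lower numbered 370 without a filter, 720 with median-of-ratios scaling, 1844 with TPM and 46 without the replicate block, and 420 to 1035 when a leukemia was left out. Without the replicate block, calls were 0 higher and 0 lower among the assembly factors, 0 and 0 among the inflammatory genes, and 0 among the neighbours of AA467197. Lower assembly factors numbered 1 without a filter, with median-of-ratios scaling and with quantile normalization, and 1 to 2 when a leukemia was left out. Higher inflammatory genes numbered 1 without a filter and 1 to 2 when a leukemia was left out. Higher complex I subunits numbered 0 to 1 when a leukemia was left out. The adjusted p between leukemias for Ndufa4 was 0.00563 to 0.17 when a leukemia was left out, and 0.17 came without leukemia 4. For AA467197 it was at most 0.00389 for AA467197 in any alternative with the block. The F test between leukemias cannot be had without the block. Where not stated, the cause was not tested. The depth of 1 library is unknown, which limits statements on low genes.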
